A study of Homo sapiens with 6 samples.

Results

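The glycosyltransferase families that build cell surface glycans comprise 93 of the 22496 gene symbols measured in LoVo cells. They were chosen by symbol: the B3GNT, B3GALT, B4GALT, B4GALNT, GALNT, GCNT, FUT, ST3GAL, ST6GAL, ST8SIA and MGAT families with A4GALT and C1GALT1. Of these, 86 are enzymes, 6 are antisense transcripts and 1 is a pseudogene. LoVo is an established human colon adenocarcinoma line, and its poly-A RNA was measured in 3 SHARPIN knockout and 3 non-target libraries, non-target being the control genotype. SHARPIN belongs to the complex that builds linear ubiquitin chains. The series asks how its loss changes gene expression in these cells. The labels give no treatment, and they do not say how the knockout was made, whether it is a clone or a pool, or whether replicates are separate cultures. The p-values below therefore rest on variation among these 6 libraries, and that may be technical.

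Surface glycans are assembled in the Golgi by enzymes that each add a particular sugar in a particular linkage. GALNT enzymes start mucin-type O-glycans by placing GalNAc on serine or threonine, C1GALT1 and GCNT enzymes lay down the core structures, and MGAT enzymes set the number of branches on N-glycans. B3GNT, B4GALT and B3GALT enzymes extend the chains, and fucosyltransferases and sialyltransferases cap them, giving the blood group H and Lewis antigens and the sialylated antigens used as markers of colon cancer.

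The deposited values are FPKM, fragment numbers scaled by transcript length and by library total, so levels can be compared between genes of different length. A gene was tested when it reached 1 FPKM in at least 3 of the 6 libraries, which 57 of the 93 did (54 enzymes and 3 antisense transcripts). The test was limma on log2(FPKM + 1) over all 13092 genes that met that filter, with Benjamini-Hochberg adjustment, and "rose" and "fell" below mean an adjusted p under 0.05 in the libraries labelled knockout. Fold changes on this scale understate the change of low genes. The sum of FPKM over all genes lay between 416852 and 522919 per library, highest in knockout replicate 3, and the depth estimated from the smallest steps between values was 21100000 to 22500000 fragments. That estimate is rough, since it rests on a minority of values and on a search over a preset range of steps. Both replicate 1 libraries were the highest on the second principal component, at 36.3 (knockout) and 20.6 (non-target). Knockout replicate 3 was the lowest, at -28.1, and the remaining libraries were at -9.99 to -9.04. Non-target replicates 2 and 3 were nearly alike, with a Pearson correlation of 0.997 across tested genes. SHARPIN itself was at 7.55, 11.9 and 18.0 FPKM in knockout replicates 1, 2 and 3 and at 11.9, 13.9 and 12.9 FPKM in non-target replicates 1, 2 and 3 (limma, adjusted p = 0.827), so its transcript does not check the labels. Of the 8 colon epithelial markers examined, 8 met the filter, among them EPCAM at 132 to 197 FPKM in knockout and 192 to 198 FPKM in non-target. Of these 8, CEACAM5 (13.4 FPKM in knockout and 47.7 FPKM in non-target) and VIL1 (0.510 FPKM in knockout and 2.39 FPKM in non-target) fell, and KRT20 (17.1 FPKM in knockout and 3.19 FPKM in non-target) rose. Stratified squamous markers summed to 90.8 to 130 FPKM in knockout and 32.8 to 37.3 FPKM in non-target, with KRT5, KRT14 and KRT10 higher and DSG3 lower past the test, while TP63 was at 0 in the 3 knockout libraries. Of the 5 endothelial and the 5 immune markers, 0 reached the filter. Fibroblast markers summed to 0.234 to 0.798 FPKM in knockout and 7.77 to 18.8 FPKM in non-target, where collagen COL1A1 was at 6.60 FPKM in replicate 1 and under 0.3 FPKM in replicates 2 and 3. LUM, the 1 fibroblast marker tested, was at 0.151 to 0.385 FPKM in knockout and 5.03 to 7.52 FPKM in non-target, and fell (limma, adjusted p = 5.83e-05). LUM and VIL1 met the filter only through the non-target libraries, and KRT14 only through the knockout libraries. A difference was thus built into the selection of these 3 genes. The part of these markers in the results below was not tested.

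Of the 57 tested members, 8 rose, 8 fell and 41 did not pass (limma, adjusted p below 0.05, 3 libraries a group). The 16 called members are 28.1% of those tested, where 12.2% of all tested genes were called. The families and gene lists were chosen with earlier results of these data known. Such shares, here and below, are therefore no test of whether these lists changed more than other genes. Among all tested genes 6.26% rose and 5.93% fell, which is 820 and 777 genes, or 670 and 963 when each library was scaled to a common sum, which let 14575 genes past the same filter. The groups did not overlap in 28 of the 57 members, or 49.1%, against 32.1% of all tested genes. The median log2 fold change was 0.04 in the tested members and 0.02 in all tested genes. The median absolute change was 0.34 in the members against 0.25 in all tested genes. The filter had to be met in only 3 libraries, and FUT2 met it through the non-target libraries alone. With the replicate number of the labels as a block, 10 members rose and 13 fell, where 25.3% of all tested genes were called. That fit took the spread of 86.4% of genes from the intensity trend alone, and the labels do not say that libraries were paired. The blocked p-values below carry that limit. On the log2(FPKM + 1) scale the largest increases were in A4GALT, ST3GAL4, MGAT5 and B3GNT2. The largest decreases were in GCNT3, B3GALT5, its antisense transcript B3GALT5-AS1 and FUT2. By the ratio of knockout to non-target means, FUT1 (2.83) was above MGAT5 (2.71) and B3GNT2 (2.65). Of the 16 called members, 13 also passed under each of the other settings and omissions of a library that tested them, and the exceptions are GALNT7, FUT4 and B4GALNT4. Of the 41 members that did not pass, 9 passed in some other setting. They are named below for that reason, so their passing there is no added support.

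**Figure D1:**
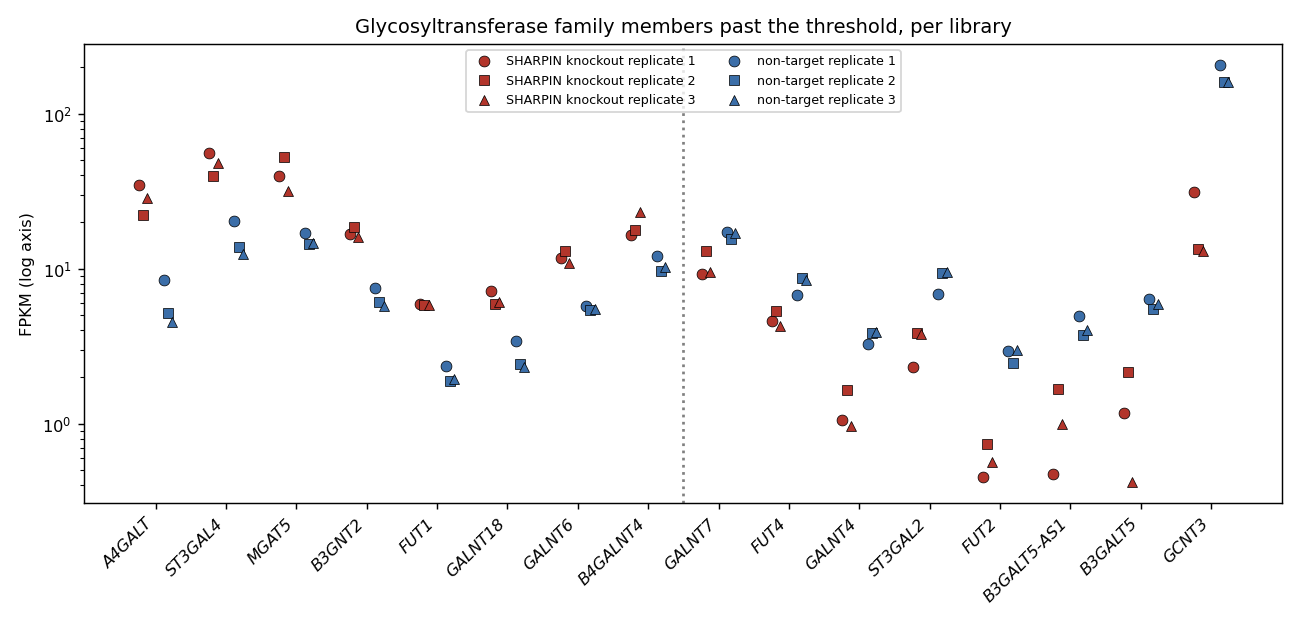
FPKM of the 16 called members in each of the 6 libraries on a log axis, with the 3 knockout libraries (red) left of the 3 non-target libraries (blue) for each gene and the marker shape giving the replicate number. The groups do not overlap in any of the 16, and the 8 genes left of the dotted line are higher in knockout.

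The region before the transcription start is shown for the enzymes with the largest increases and decreases, so that the sequence next to their start sites can be seen beside their values. RefSeq windows (build GRCh38.p14) run from 250 bases before to 50 after the start. The most upstream window is given where a gene has several, as A4GALT (2 windows), B3GALT5 (2) and ST3GAL4 (3) do. Capitals mark matches on either strand to any of 6 short motifs. The general promoter motifs searched were the TATA box, spelled TATAAA, and the GC box bound by Sp1 and related factors, spelled GGGCGG. The AP-1 motif, bound by Fos and Jun proteins, was spelled TGANTCA. For the factors of gut epithelium, the core of the HNF4 motif was spelled CAAAGTC, the part of the HNF1 motif that was searched was spelled GTTAAT, and the motif of the CDX homeobox factors was spelled TTTATNG. The sequences of the decreased enzymes GCNT3 (chr15:59611533-59611832, plus strand) and B3GALT5 (chr21:39612690-39612989, plus strand) are followed by those of the increased enzymes A4GALT (chr22:42721252-42721551, minus strand) and ST3GAL4 (chr11:126355762-126356061, plus strand).
GCNT3: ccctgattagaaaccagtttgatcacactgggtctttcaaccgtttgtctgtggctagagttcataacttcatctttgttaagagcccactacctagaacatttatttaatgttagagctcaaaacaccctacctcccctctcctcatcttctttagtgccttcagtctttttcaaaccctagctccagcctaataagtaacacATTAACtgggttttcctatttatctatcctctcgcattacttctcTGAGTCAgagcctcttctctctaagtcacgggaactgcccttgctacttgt
B3GALT5: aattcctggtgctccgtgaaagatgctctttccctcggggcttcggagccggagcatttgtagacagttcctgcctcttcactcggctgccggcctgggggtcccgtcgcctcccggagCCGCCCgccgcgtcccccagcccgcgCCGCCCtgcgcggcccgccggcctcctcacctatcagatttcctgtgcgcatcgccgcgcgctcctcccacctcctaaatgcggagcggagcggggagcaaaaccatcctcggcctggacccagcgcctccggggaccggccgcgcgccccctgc
A4GALT: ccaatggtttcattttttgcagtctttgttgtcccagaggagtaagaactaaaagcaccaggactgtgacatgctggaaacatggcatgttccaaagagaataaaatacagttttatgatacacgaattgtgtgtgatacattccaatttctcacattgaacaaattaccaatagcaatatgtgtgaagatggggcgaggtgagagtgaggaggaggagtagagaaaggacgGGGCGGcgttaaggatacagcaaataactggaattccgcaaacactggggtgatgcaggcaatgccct
ST3GAL4: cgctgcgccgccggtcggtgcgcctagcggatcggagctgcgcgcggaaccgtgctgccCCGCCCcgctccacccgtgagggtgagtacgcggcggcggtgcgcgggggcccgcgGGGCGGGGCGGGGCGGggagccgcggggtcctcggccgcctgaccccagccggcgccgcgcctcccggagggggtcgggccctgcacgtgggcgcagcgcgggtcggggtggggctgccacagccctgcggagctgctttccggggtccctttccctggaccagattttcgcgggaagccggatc

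GCNT3 held 1 AP-1 match and 1 HNF1 match, and no GC box. The shown windows of B3GALT5, A4GALT and ST3GAL4 held 2, 1 and 4 GC box matches and none of the other motifs. In ST3GAL4, 3 of the 4 share bases in 1 run. Other windows of these genes are not described, and which start LoVo cells use was not tested. The GC content of the windows was 42.3% in GCNT3 and 43.3% in A4GALT, against 71% in B3GALT5 and 79.3% in ST3GAL4. Of 35116 RefSeq windows, 45% hold a GC box, 7.71% an AP-1 match, 6.88% an HNF1 match, 3.37% an HNF4 core, 9.73% a CDX match and 11.5% a TATA box. Windows were found for 39 of the 54 tested enzymes, among them 6 that rose and 5 that fell. GC boxes stood in 5 of those 6 and 3 of those 5, and in 29 of the 39. Among the 11 called enzymes with a window, AP-1 and HNF1 matches were found in GCNT3, an HNF4 core in FUT2 and a CDX match in MGAT5. A match is a run of letters, not evidence that a factor binds there.

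The O-glycan core enzyme GCNT3 showed the largest change of the families. GCNT3, the mucin-type core 2 and core 4 branching enzyme of the gut (chromosome 15, 59887074 to 59932438, GRCh37), was at 31.3, 13.4 and 12.9 FPKM in knockout replicates 1, 2 and 3, against 206, 160 and 160 FPKM in non-target replicates 1, 2 and 3. All 3 knockout libraries were far below the lowest non-target library, and replicate 1 was the highest of its group in both genotypes. This is a log2 difference of -3.23 ± 0.31 (SE; adjusted p = 0.000165, limma, n = 3 a group), and the non-target mean was 9.12 times the knockout mean. Without knockout replicate 1 it was -3.62, the largest drop among the other settings tried. In non-target libraries GCNT3 was the most abundant member, at 24.4% ± 2.20 (SD, n = 3) of the families' summed FPKM. In knockout libraries it had rank 10 and held 2.98% ± 1.45 (SD, n = 3).

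The other core enzymes were low. C1GALT1, which makes the core 1 structure, averaged 3.84 ± 0.726 FPKM in knockout and 6.17 ± 0.642 FPKM in non-target (SD, n = 3 each). Its groups did not overlap, but it missed the threshold (limma, adjusted p = 0.0761), and it passed as lower with a replicate block (adjusted p = 0.0182) or without knockout replicate 1 (0.0367). GCNT1, the core 2 enzyme known best from leukocytes, was at 3.604, 1.19 and 0.994 FPKM in knockout replicates 1, 2 and 3 and at 2.78, 1.96 and 2.02 FPKM in non-target replicates 1, 2 and 3. Knockout replicate 1 was thus the highest and the other knockout libraries the lowest of the 6. GCNT1 did not pass over the 6 libraries (limma, log2 fold change -0.25, adjusted p = 0.659) or with a replicate block (adjusted p = 0.363). Without knockout replicate 1, GCNT1 passed as lower (limma, log2 fold change -0.63, adjusted p = 0.0444). B3GNT6, the core 3 enzyme of the colon, was unlisted in 4 libraries and at no more than 0.019 FPKM in the others. GCNT2, GCNT4 and GCNT7 also stayed below the filter, with GCNT4 at 0.11 to 0.207 FPKM in knockout and 0.59 to 0.669 FPKM in non-target.

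**Figure D2:**
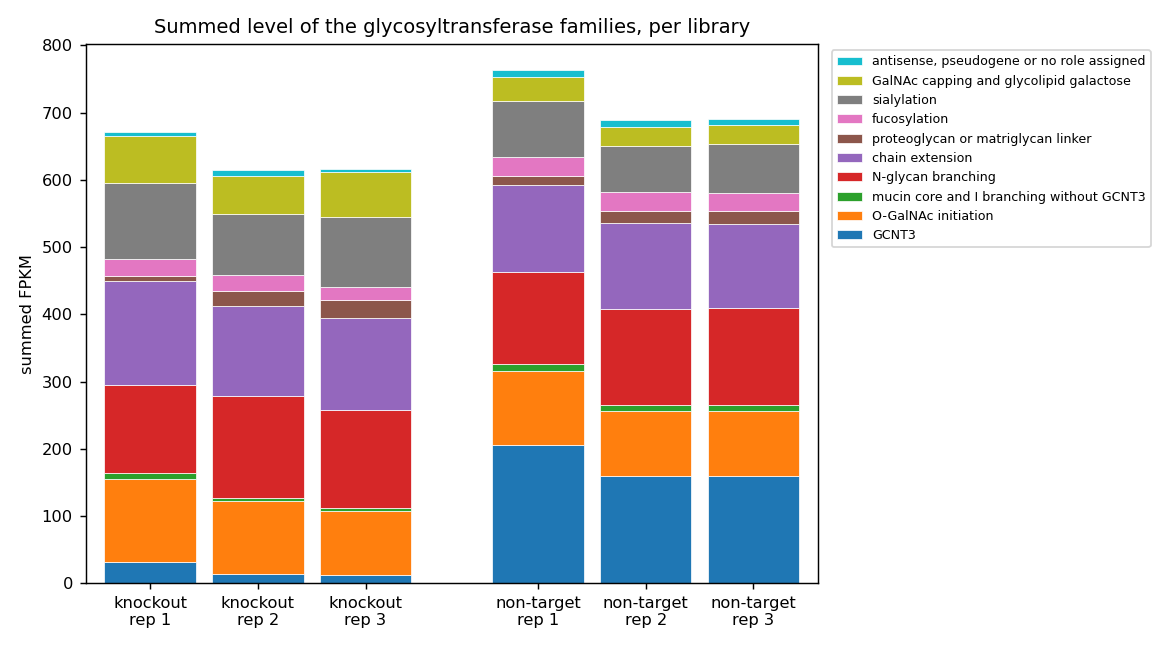
Stacked bars of the summed FPKM of the 93 members in each library, split by role with GCNT3 shown on its own at the base, knockout libraries on the left and non-target libraries on the right. The totals run from 615 to 672 FPKM in knockout and from 689 to 764 FPKM in non-target, and the GCNT3 segment is 12.9 to 31.3 FPKM in knockout and 160 to 206 FPKM in non-target.

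Summed over the 93 members, knockout libraries held 672, 615 and 617 FPKM and non-target libraries 764, 689 and 691 FPKM in replicates 1, 2 and 3. Without GCNT3, left out because it fell most, the sums were 640, 601 and 604 FPKM in knockout replicates 1, 2 and 3 and 558, 529 and 531 FPKM in non-target replicates 1, 2 and 3. The groups did not overlap in either sum, but the second order depends on scaling, since the total of knockout replicate 3 was the highest. Per 1000 FPKM of the library, the sum without GCNT3 was 1.51, 1.44 and 1.16 in knockout replicates 1, 2 and 3 and 1.32, 1.25 and 1.23 in non-target replicates 1, 2 and 3, with knockout replicate 3 the lowest of the 6. With GCNT3 it was 1.58, 1.47 and 1.18 in knockout and 1.81, 1.63 and 1.60 in non-target, again without overlap. The sialyltransferases summed to 91.6 to 113 FPKM in knockout and 68.2 to 83.4 FPKM in non-target. Without ST3GAL4 that sum was 51.9 to 57.2 FPKM in knockout and 54.3 to 63.0 FPKM in non-target, and the groups overlapped. The fucosyltransferases summed to 18.9 to 25.3 FPKM in knockout and 27.5 to 28.2 FPKM in non-target. The N-glycan branching enzymes overlapped, at 132 to 151 FPKM in knockout and 136 to 143 FPKM in non-target.

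The GALNT enzymes that initiate O-glycans changed in both directions. Of 18 listed, 12 were tested, 2 rose, 2 fell and 8 did not pass, or 33.3% called against 12.2% of all tested genes. GALNT6 was at 11.7, 13.0 and 10.9 FPKM in knockout replicates 1, 2 and 3, against 5.77, 5.44 and 5.51 FPKM in non-target replicates 1, 2 and 3. On the log2 scale the difference was 0.97 ± 0.16 (SE; adjusted p = 0.00315, limma). GALNT18 was at 7.22, 5.87 and 6.10 FPKM in knockout replicates 1, 2 and 3, against 3.40, 2.44 and 2.33 FPKM in non-target replicates 1, 2 and 3. It rose by 0.997 ± 0.18 (SE) on the log2 scale (limma, adjusted p = 0.0066). In both genes each knockout library lay above each non-target library. Exons of GALNT6 overlap those of SLC4A8 on the opposite strand, and whether counting used strand is not stated.

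GALNT4 and GALNT7, which prefer peptides that already carry GalNAc, fell. GALNT4 was at 1.06, 1.65 and 0.973 FPKM in knockout replicates 1, 2 and 3, against 3.24, 3.87 and 3.88 FPKM in non-target replicates 1, 2 and 3, a log2 difference of -1.07 ± 0.18 (SE; adjusted p = 0.00366, limma). The exon of GALNT4 lies within the readthrough gene POC1B-GALNT4 on the same strand, so fragments of the 2 cannot be told apart. GALNT7 was at 9.29, 12.9 and 9.52 FPKM in knockout replicates 1, 2 and 3, against 17.3, 15.6 and 17.0 FPKM in non-target replicates 1, 2 and 3. The log2 difference of -0.62 ± 0.17 (SE; adjusted p = 0.0481, limma) was close to the threshold. GALNT7 lost the call when knockout replicate 1 (adjusted p = 0.0661) or 3 (0.105), or any single non-target library (0.117, 0.142 and 0.203 for replicates 1, 2 and 3), was left out. Exons of GALNT7 overlap those of 3 genes on the opposite strand, among them GALNT7-DT.

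GALNT1, with the highest mean of the GALNT family over the 6 libraries, although GALNT7 was above it in non-target, overlapped between groups, at 17.0 ± 3.65 FPKM in knockout and 15.8 ± 2.72 FPKM in non-target (SD, n = 3 each). GALNT3, which glycosylates the phosphate-regulating hormone FGF23 among other proteins, was at 12.2, 3.37 and 2.60 FPKM in knockout replicates 1, 2 and 3 and at 9.87, 7.89 and 7.32 FPKM in non-target replicates 1, 2 and 3. Knockout replicate 1 was the highest of the 6 libraries and the other knockout libraries were the lowest. It did not pass over the 6 libraries (limma, adjusted p = 0.373), and passed as lower without knockout replicate 1 (log2 fold change -1.23, adjusted p = 0.0036) and with a replicate block (adjusted p = 0.0048). The 6 untested GALNT genes stayed at 0.359 FPKM or below.

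Among the N-glycan branching enzymes MGAT5 rose, and the other tested members did not pass. MGAT5 adds the beta-1,6 branch that is read by the lectin L-PHA and is known from studies of tumour invasion (chromosome 2, 134877554 to 135212192, GRCh37). It was at 39.7, 52.8 and 31.9 FPKM in knockout replicates 1, 2 and 3, against 16.9, 14.4 and 14.6 FPKM in non-target replicates 1, 2 and 3. The knockout libraries differed among themselves but all exceeded the non-target libraries, and the log2 difference was 1.36 ± 0.20 (SE; adjusted p = 0.00202, limma), 2.71 times in the mean. MGAT4B, which adds a beta-1,4 branch and was the most abundant member in knockout, averaged 58.0 ± 5.57 FPKM in knockout and 80.0 ± 1.46 FPKM in non-target (SD, n = 3 each). It missed the threshold (limma, adjusted p = 0.088) although its groups did not overlap, and passed as lower with a replicate block (adjusted p = 0.0352), with scaling to a common sum (0.0277) and without knockout replicate 3 (0.0454). Exons of MGAT4B overlap those of SQSTM1 on the opposite strand, and no source used here says whether counting used strand. Its paralog MGAT4A averaged 2.46 ± 0.272 FPKM in knockout and 1.63 ± 0.630 FPKM in non-target and did not pass (limma, adjusted p = 0.218). MGAT4A passed as higher only when both replicate 1 libraries were left out (limma, adjusted p = 0.0312). MGAT1, which opens the route to complex N-glycans, stood at 24.6 to 34.0 FPKM in knockout and 25.3 to 33.9 FPKM in non-target, and MGAT2, which starts the next antenna, at 9.79 to 13.5 FPKM in knockout and 12.9 to 13.6 FPKM in non-target. MGAT3, the bisecting enzyme, was at 0.045 FPKM or below.

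**Figure D3:**
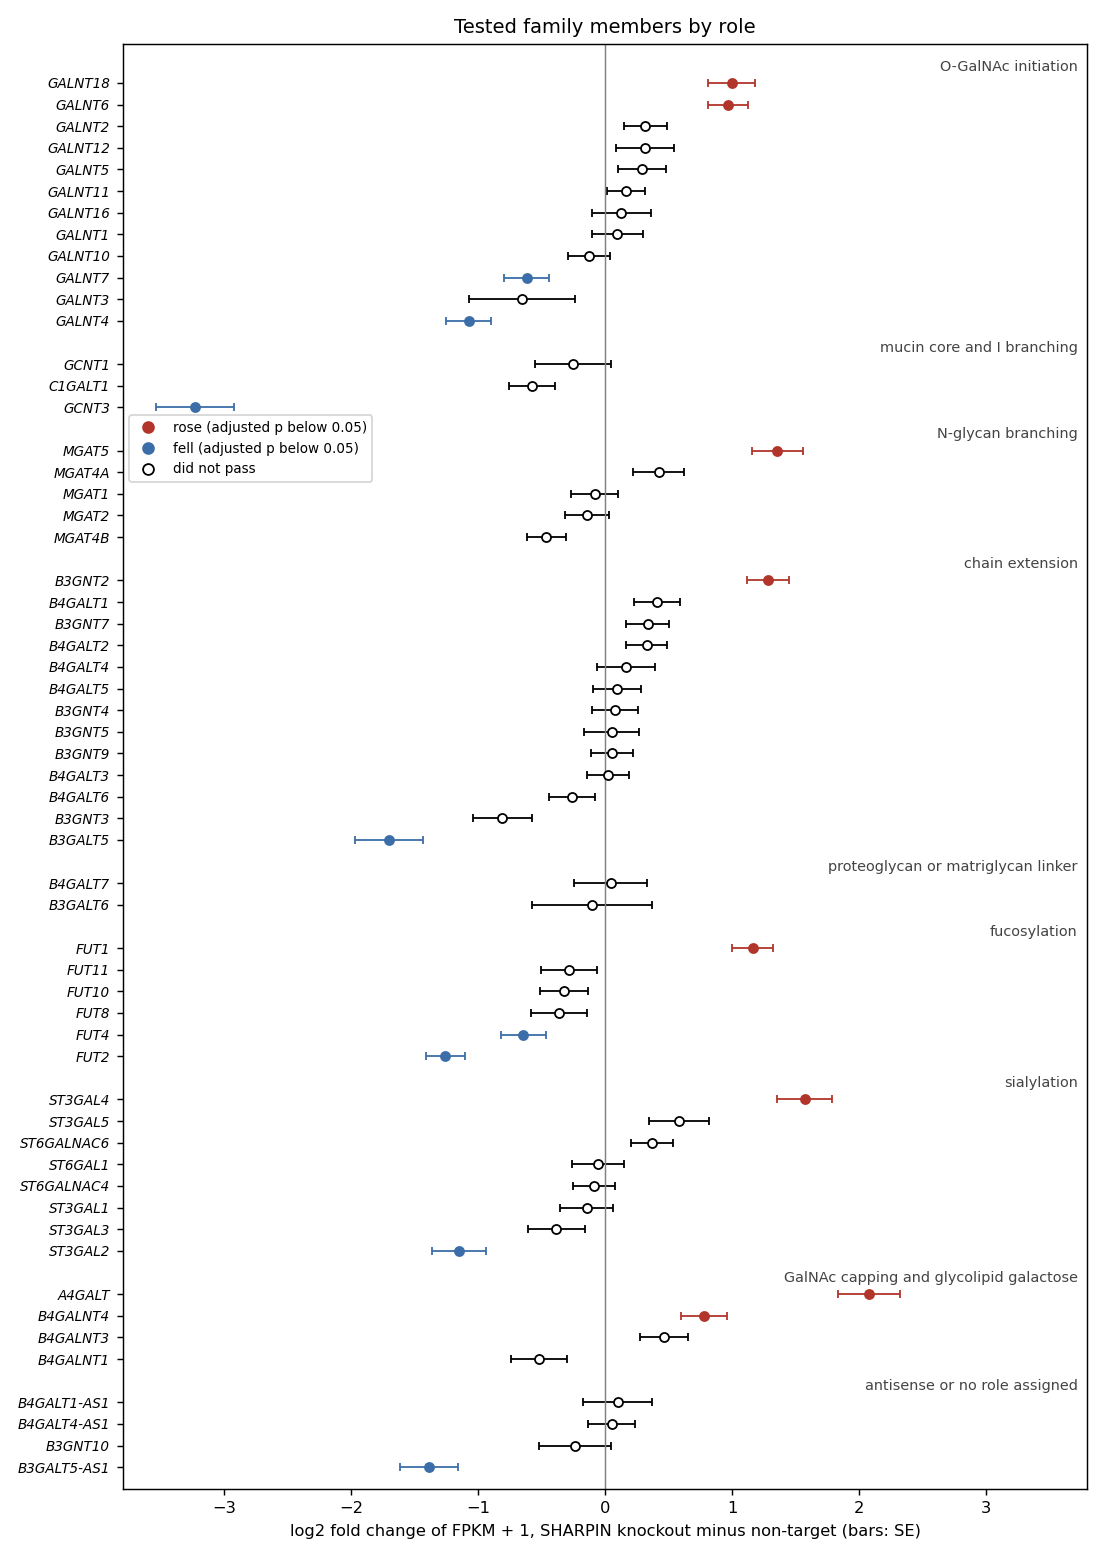
Log2 fold change of FPKM + 1 (knockout minus non-target) with its SE for the 57 tested members, grouped by role. Filled red points rose and filled blue points fell (adjusted p below 0.05), and open points did not pass; GCNT3 at -3.23 and A4GALT at 2.08 mark the ends.

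In chain extension, 1 of 13 tested enzymes rose and 1 fell, and the 15.4% called is near the 12.2% of all tested genes. B3GNT2, the main enzyme of poly-N-acetyllactosamine synthesis, was at 16.8, 18.5 and 16.1 FPKM in knockout replicates 1, 2 and 3, against 7.55, 6.12 and 5.71 FPKM in non-target replicates 1, 2 and 3. This is a log2 difference of 1.28 ± 0.17 (SE; adjusted p = 0.000887, limma), and the groups were well apart. B3GALT5, which makes the type 1 chains that carry Lewis a and sialyl Lewis a (CA19-9) in the gut, fell (chromosome 21, 40928369 to 41045064, GRCh37). It was at 1.17, 2.14 and 0.418 FPKM in knockout replicates 1, 2 and 3, against 6.37, 5.53 and 5.93 FPKM in non-target replicates 1, 2 and 3, a log2 difference of -1.70 ± 0.27 (SE; adjusted p = 0.00271, limma). B3GALT5-AS1, transcribed from the opposite strand with overlapping exons, was at 0.473, 1.67 and 0.997 FPKM in knockout replicates 1, 2 and 3, against 4.93, 3.71 and 4.003 FPKM in non-target replicates 1, 2 and 3 (log2 fold change -1.38 ± 0.23, adjusted p = 0.00357). The libraries mark strand, but unless the counting used it, part of the reads of the 2 genes could be shared.

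B3GNT3, which extends core 1 O-glycans, was at 11.03, 5.29 and 7.05 FPKM in knockout replicates 1, 2 and 3, against 13.0, 14.7 and 13.9 FPKM in non-target replicates 1, 2 and 3. All knockout libraries were lower, replicate 1 the least so, and the gene just missed the threshold (limma, adjusted p = 0.0516). It passed with a replicate block (adjusted p = 9.21e-05) and without knockout replicate 1 (log2 fold change -1.06, adjusted p = 0.00432). None of the galactosyltransferases that complete N-acetyllactosamine passed. B4GALT3, the highest of the chain extenders by mean over the 6 libraries, averaged 23.1 ± 3.05 FPKM in knockout and 22.6 ± 1.36 FPKM in non-target (SD, n = 3 each; limma, adjusted p = 0.945). B4GALT1 averaged 20.4 ± 4.30 FPKM in knockout and 14.9 ± 0.443 FPKM in non-target, and B4GALT2 23.2 ± 3.12 FPKM in knockout and 18.2 ± 0.456 FPKM in non-target, with groups that did not overlap in either gene, and did not pass (limma, adjusted p = 0.198 and 0.238). B3GNT5, which starts lacto-series glycolipids, stood at 2.42 to 4.82 FPKM in knockout and 3.08 to 3.78 FPKM in non-target. B3GALT1, B3GALT2 and B3GNT8 were below the filter, B3GALT1 at 0 to 0.021 FPKM in knockout and 0.307 to 0.747 FPKM in non-target.

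The linker enzymes of proteoglycans varied within the knockout group. B3GALT6 was at 1.58, 8.55 and 10.3 FPKM in knockout replicates 1, 2 and 3, against 4.87, 6.67 and 6.71 FPKM in non-target replicates 1, 2 and 3. B4GALT7 was at 6.64, 13.0 and 16.9 FPKM in knockout replicates 1, 2 and 3, against 9.28, 11.9 and 12.2 FPKM in non-target replicates 1, 2 and 3. In both genes knockout replicate 1 was the lowest library and knockout replicates 2 and 3 were the highest, and neither passed (limma, adjusted p = 0.917 for B3GALT6 and 0.945 for B4GALT7). Across the tested members, knockout replicate 1 lay more than 1.5-fold from the mean of the other knockout libraries in 18 of 57, and non-target replicate 1 from its group in 8 of 57. The share over all tested genes was not taken, so these counts describe the libraries and not a trait of the families.

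The fucosyltransferases of the H antigen differed in opposite directions. Of 6 tested fucosyltransferases 1 rose and 2 fell, or 50% called, against 12.2% of all tested genes. FUT1, the H enzyme of red cells and endothelium, was at 5.89, 5.86 and 5.80 FPKM in knockout replicates 1, 2 and 3, against 2.36, 1.89 and 1.94 FPKM in non-target replicates 1, 2 and 3. On the log2 scale the difference was 1.16 ± 0.16 (SE; adjusted p = 0.00136, limma). FUT2, the secretor enzyme of gut epithelium, was at 0.453, 0.737 and 0.570 FPKM in knockout replicates 1, 2 and 3, against 2.95, 2.46 and 2.98 FPKM in non-target replicates 1, 2 and 3. It fell by 1.26 ± 0.16 (SE) on the log2 scale (limma, adjusted p = 0.000713), and all knockout libraries were below 1 FPKM. Since it met the low-value filter only through the non-target libraries, a difference was built into its selection. The pair are neighbours on chromosome 19 (GRCh37), FUT2 at 49199228 to 49209208 on the plus strand and FUT1 at 49251268 to 49258647 on the minus strand, 42060 bases apart. The ratio of FUT1 to FUT2 was 13.0, 7.95 and 10.2 in knockout replicates 1, 2 and 3, against 0.802, 0.769 and 0.651 in non-target replicates 1, 2 and 3.

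FUT4, an alpha-1,3-fucosyltransferase that makes Lewis x, was at 4.61, 5.33 and 4.27 FPKM in knockout replicates 1, 2 and 3, against 6.80, 8.69 and 8.43 FPKM in non-target replicates 1, 2 and 3. This is a log2 difference of -0.64 ± 0.17 (SE; adjusted p = 0.0407, limma), and the groups did not overlap. FUT4 lost the call when knockout replicate 2 (adjusted p = 0.061) or 3 (0.0843), or non-target replicate 2 (0.226) or 3 (0.215), was left out. Exons of FUT4 overlap those of PIWIL4 on the same strand. FUT8, the core fucosyltransferase of N-glycans and the most abundant of the family, averaged 7.44 ± 2.46 FPKM in knockout and 9.62 ± 1.31 FPKM in non-target (SD, n = 3 each; limma, adjusted p = 0.354). FUT10 and FUT11 did not pass. FUT3, FUT5, FUT6 and FUT7, alpha-1,3 and alpha-1,3/4-fucosyltransferases that finish Lewis and sialyl Lewis antigens, were below the filter, with FUT3 at 0.023 to 0.097 FPKM in knockout and 0.16 to 0.343 FPKM in non-target and the others at 0.058 FPKM or below.

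ST3GAL4 was the sialyltransferase that rose. ST3GAL4, which places alpha-2,3-sialic acid on N-acetyllactosamine (chromosome 11, 126225535 to 126310239, GRCh37), was at 55.6, 39.7 and 47.9 FPKM in knockout replicates 1, 2 and 3, against 20.4, 13.8 and 12.5 FPKM in non-target replicates 1, 2 and 3. The lowest knockout library was well above the highest non-target library. On the log2 scale the difference was 1.57 ± 0.22 (SE; adjusted p = 0.0012, limma), 3.06 times in the mean, and the gene moved to the second rank among the 93 members in knockout. ST3GAL2, which sialylates the galactose of core 1 and of gangliosides, was at 2.32, 3.86 and 3.78 FPKM in knockout replicates 1, 2 and 3, against 6.82, 9.36 and 9.47 FPKM in non-target replicates 1, 2 and 3. It fell by 1.15 ± 0.21 (SE) on the log2 scale (limma, adjusted p = 0.00679), and replicate 1 was the lowest in both groups. Exons of ST3GAL2 overlap those of an unnamed gene on the opposite strand.

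ST3GAL5, the GM3 synthase, was at 3.795, 1.83 and 1.82 FPKM in knockout replicates 1, 2 and 3, against 1.69, 1.15 and 0.963 FPKM in non-target replicates 1, 2 and 3. Its groups did not overlap, but it did not pass (limma, adjusted p = 0.156), and it passed as higher with a replicate block (adjusted p = 0.00929). ST6GAL1, the alpha-2,6-sialyltransferase of N-glycans, stood at 5.49 to 8.52 FPKM in knockout and 6.42 to 8.90 FPKM in non-target. ST6GALNAC1, which makes the sialyl-Tn antigen, was unlisted in knockout replicate 2 and at 0.054 and 0.107 FPKM in knockout replicates 1 and 3, against 1.86, 0.536 and 0.403 FPKM in non-target replicates 1, 2 and 3. It reached 1 FPKM only in non-target replicate 1, the library with the raised collagen transcript, and was not tested. Of the polysialic and disialic acid enzymes ST8SIA1, ST8SIA3, ST8SIA4, ST8SIA5 and ST8SIA6, the highest value was 0.148 FPKM, and ST8SIA3 was listed at 0 in 2 libraries and unlisted in the others.

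Of the enzymes that place GalNAc caps or the glycolipid galactose, 2 of 4 tested rose, where 6.26% of all tested genes rose. A4GALT, which makes globotriaosylceramide, the receptor of Shiga toxin (chromosome 22, 43088127 to 43117304, GRCh37), was at 34.4, 22.1 and 28.6 FPKM in knockout replicates 1, 2 and 3, against 8.45, 5.17 and 4.52 FPKM in non-target replicates 1, 2 and 3. The groups were far apart, and replicate 1 was the highest in each. This is a log2 difference of 2.08 ± 0.24 (SE; adjusted p = 0.000532, limma), 4.70 times in the mean. An exon of A4GALT overlaps 1 of CYB5R3 on the same strand in the GENCODE annotation. B4GALNT4, which with B4GALNT3 makes LacdiNAc, was at 16.5, 17.8 and 23.2 FPKM in knockout replicates 1, 2 and 3, against 12.1, 9.72 and 10.3 FPKM in non-target replicates 1, 2 and 3. It rose by 0.78 ± 0.18 (SE) on the log2 scale (limma, adjusted p = 0.0213), but lost the call when knockout replicate 2 (adjusted p = 0.0609) or non-target replicate 2 (0.11) or 3 (0.0987) was left out. B4GALNT3 averaged 13.9 ± 3.08 FPKM in knockout and 9.66 ± 0.985 FPKM in non-target, and B4GALNT1, the GM2 and GD2 synthase, 2.50 ± 0.794 FPKM in knockout and 3.97 ± 0.774 FPKM in non-target (SD, n = 3 each). B4GALNT3 and B4GALNT1 did not pass over the 6 libraries (limma, adjusted p = 0.161 and 0.176). Only with a replicate block did B4GALNT3 pass as higher (limma, adjusted p = 0.0423) and B4GALNT1 as lower (0.0379). B4GALNT2, the Sda enzyme of normal colon, was at 0.364 FPKM or below.

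Ratios are given for 4 pairs of enzymes with related reactions, picked after their values were seen, among them FUT1 and FUT2. In each pair the groups did not overlap in either gene, with the first gene higher and the second lower in knockout. The ratios had to be higher in knockout for that reason, and they add no evidence beyond the single genes. The ratio of ST3GAL4 to ST3GAL2 was 23.97, 10.3 and 12.7 in knockout replicates 1, 2 and 3, against 2.99, 1.48 and 1.32 in non-target replicates 1, 2 and 3. The ratio of GALNT6 to GALNT4 was 10.96, 7.84 and 11.2 in knockout replicates 1, 2 and 3, against 1.78, 1.40 and 1.42 in non-target replicates 1, 2 and 3. MGAT5 stood at 0.726, 0.964 and 0.495 times MGAT4B in knockout replicates 1, 2 and 3, against 0.214, 0.181 and 0.179 times in non-target replicates 1, 2 and 3, so the levels of this pair were closer in knockout, and MGAT4B itself did not pass. These ratios are within a library and thus do not depend on how libraries are scaled.

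**Figure D4:**
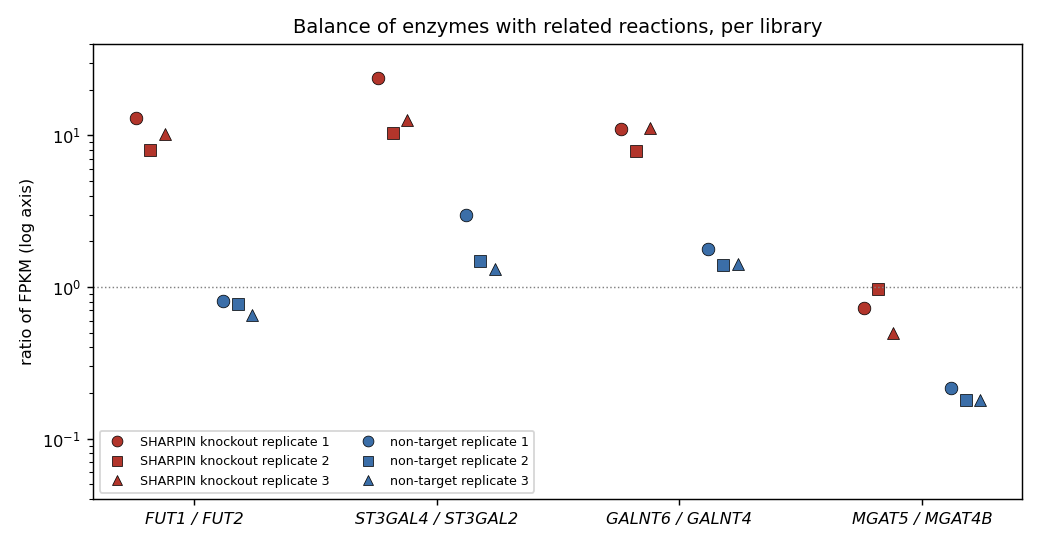
Ratio of FPKM between members with related reactions in each library on a log axis, knockout (red) left of non-target (blue) within each pair. FUT1 exceeds FUT2 in the 3 knockout libraries and is below it in the 3 non-target libraries. The other ratios are higher in knockout without overlap, which follows from the values of the single genes.

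The 36 untested members include 32 enzymes, 3 antisense transcripts and the pseudogene MGAT4EP. In 26 of them no library reached 0.2 FPKM. ST6GALNAC1 was the member with a library at or above 1 FPKM, and next to it FUT8-AS1 reached 0.989 FPKM. The tested antisense transcripts B4GALT1-AS1 and B4GALT4-AS1 did not pass (limma, adjusted p = 0.867 and 0.902), and neither did B3GNT10 (0.66), which RefSeq lists as an older symbol of B3GALT9 and which was given no role here.

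Of 27 tested genes of nucleotide sugar synthesis, which supplies the activated sugars, 1 rose and 3 fell, or 14.8%, near the 12.2% of all tested genes. With a replicate block 6 rose and 4 fell, or 37%, against 25.3% of all tested genes. CMAS, which activates sialic acid to CMP-sialic acid, was at 36.1, 32.2 and 34.5 FPKM in knockout replicates 1, 2 and 3, against 23.96, 19.7 and 17.3 FPKM in non-target replicates 1, 2 and 3 (limma, log2 fold change 0.74, adjusted p = 0.0207). GNE, which starts sialic acid synthesis, was at 5.48, 3.71 and 2.74 FPKM in knockout replicates 1, 2 and 3, against 8.70, 6.59 and 7.496 FPKM in non-target replicates 1, 2 and 3 (limma, log2 fold change -0.82, adjusted p = 0.044). GALK2, a GalNAc kinase, and UGDH, which makes UDP-glucuronic acid, fell by 0.94 and 0.83 on the log2 scale (limma, adjusted p = 0.0101 and 0.0183). GALK2 passed without any single library, while GNE lost the call without any library except knockout replicate 1 (adjusted p up to 0.135), CMAS without knockout replicate 2 or non-target replicate 2 or 3 (up to 0.147), and UGDH without knockout replicate 2 or 3 or non-target replicate 1 or 3 (up to 0.0755).

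Among 14 tested Golgi nucleotide sugar transporters 0 rose and 1 fell, or 7.14% against 12.2% of all tested genes, and with a replicate block 1 rose and 4 fell, or 35.7% against 25.3%. SLC35A3, a UDP-GlcNAc transporter, averaged 4.38 ± 1.008 FPKM in knockout and 8.60 ± 1.23 FPKM in non-target (SD, n = 3 each; limma, adjusted p = 0.0225), and lost the call without any library except knockout replicate 1 (adjusted p up to 0.079). Of 10 tested glycan sulfotransferases, 1 fell (10% against 12.2%), the heparan sulfate enzyme HS3ST1 (limma, log2 fold change -0.94, adjusted p = 0.0261, and up to 0.117 without knockout replicate 2 or 3 or non-target replicate 2 or 3), with 2 higher and 2 lower under the block (40% against 25.3%). Of 18 tested glycosidases, 1 rose (5.56% against 12.2%), the Golgi alpha-mannosidase MAN1A1, at 13.4 ± 3.79 FPKM in knockout and 5.37 ± 1.011 FPKM in non-target (SD, n = 3 each; limma, adjusted p = 0.00971, and 0.0593 without knockout replicate 2). With a replicate block 1 glycosidase rose and 3 fell (22.2% against 25.3%).

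Among glycan carriers and readers, pooled over both lists below, 5 of 11 tested genes fell, 1 rose and 5 did not pass. Among all tested genes 5.93% fell and 6.26% rose. Of 5 tested mucins and related genes 2 fell, where 5.93% of all tested genes fell. MUC13, a transmembrane mucin of the gut, was at 12.4, 9.44 and 8.42 FPKM in knockout replicates 1, 2 and 3, against 35.0, 39.1 and 35.3 FPKM in non-target replicates 1, 2 and 3 (limma, log2 fold change -1.77, adjusted p = 0.000224). MUC2, the secreted mucin of goblet cells, averaged 1.27 ± 0.342 FPKM in knockout and 3.87 ± 1.52 FPKM in non-target (SD, n = 3 each; limma, adjusted p = 0.0252, and up to 0.105 without knockout replicate 2 or 3 or non-target replicate 2 or 3). C1GALT1C1, the chaperone of C1GALT1, did not pass (adjusted p = 0.801). Of 6 tested galectins and siglecs 3 fell and 1 rose, or 66.7% called, where 12.2% of all tested genes were called. The galectins LGALS4, LGALS9 and LGALS1 had log2 fold changes of -3.75, -1.85 and -1.40, and SIGLEC15, a sialic acid-binding lectin, was at 2.41, 2.27 and 1.95 FPKM in knockout replicates 1, 2 and 3, against 0.646, 0.261 and 0.315 FPKM in non-target replicates 1, 2 and 3 (limma, adjusted p = 0.00109). SIGLEC15 met the low-value filter only through the knockout libraries, so a difference was built into its selection. LGALS1 did not pass without knockout replicate 2 or 3 or non-target replicate 1 (adjusted p up to 0.153). LGALS1 peaked at 6.64 FPKM in non-target replicate 1, where collagen was also raised. The remaining non-target libraries held 2.02 and 1.98 FPKM of LGALS1, and knockout libraries 0.207 to 1.23 FPKM. LGALS3, the most abundant tested galectin, averaged 187 FPKM in knockout against 179 FPKM in non-target. LGALS3 and LGALS8 did not pass (limma, adjusted p = 0.898 and 0.346). These are bulk samples, in which fewer cells that express a gene and less RNA per cell cannot be told apart.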

How the data were processed

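Poly-A RNA of 3 knockout and 3 non-target LoVo libraries was sequenced. The authors deposited 1 list of gene symbols with FPKM per library. Per the submitters' processing notes, reads were aligned with TopHat2 2.1.1 to hg19 and FPKM were computed with STAR 2.7.10b. Use of strand in counting and the assignment of shared fragments are not stated there. The deposited FPKM are scaled by library total, and an unlisted symbol was taken as 0.

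Members and gene lists were chosen with earlier results of these data known. Named genes are the called members, the most abundant member of each role, and in each other list the called genes with the largest change, up to 4. A further 9 uncalled members were named because they passed in some other setting. Passing there was thus the condition for naming them. B3GALT6 and others given only by level were added after their values were seen. Genes at 1 FPKM or more in at least 3 libraries were tested with limma 3.58.1 (R 4.3.3; two-sided, intensity trend, robust empirical Bayes, pseudocount 1) and checked on simulated data. Same-numbered libraries deviated together (r = 0.547, 0.309 and 0.331), so the replicate numbers of the labels were treated as pairs. Knockout replicate 2 with non-target replicate 3 (0.321) and knockout replicate 3 with non-target replicate 2 (0.320) correlated about as well. The correlations thus set only the replicate 1 libraries apart, and the pairing of replicates 2 and 3 rests on the label numbers. In the blocked fit limma gave 86.4% of genes a spread taken from the trend alone. Depth was estimated from the steps of low values in genes with 1 GENCODE transcript. These steps hold a minority of values (72 to 102 of 409 to 475 per library), so whole reads were not recovered and no count test or counting interval is given. GENCODE gave coordinates for 92 of 93 members on GRCh37, the build of the files, and RefSeq the promoter windows. Other settings tried were a filter on means under 5 FPKM or none, pseudocounts of 0.1 and 0.5, TPM or median-ratio scaling, no trend, a replicate block, and leaving out or merging libraries.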

Additional observations from a re-analysis of the deposited data

How the results depend on the processing

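The count of called members was stable under most settings, and that of all genes less so. Members that rose numbered 6 to 10 in all settings, against 8 as reported. Members that fell numbered 3 with a mean of at least 5 FPKM, a filter that left 35 members, 13 with the replicate block, and 6 to 11 in the rest, against 8 as reported. Genes called numbered 865 with the mean of at least 5 FPKM, 3309 with the replicate block, 944 with non-target replicates 2 and 3 counted as 1 sample, and 911 to 1970 with a library left out (958 without non-target replicate 2), against 1597. Calls with both replicate 1 libraries left out were 9 higher and 10 lower among members, 15 of them shared with the 16 reported. The replicate block kept the 16 and added 7. No called member changed direction. Among members that did not pass, B4GALT3 changed sign with scaling to TPM (-0.0636) and with both replicate 1 libraries left out (-0.0013), and ranged from -0.0369 to 0.13 with a library left out. B4GALT7 changed sign with scaling to TPM (-0.0464) and ranged from -0.22 to 0.39, and GALNT1 ranged from -0.0527 to 0.24. B3GALT6 was at 0.44 and SHARPIN at 0.12 with both replicate 1 libraries left out, and they ranged from -0.50 to 0.57 and from -0.41 to 0.17 with a library left out. The cause of these shifts was not tested. GALNT7 and FUT4 lost the call with no filter (adjusted p = 0.0702 and 0.0543) and with scaling to TPM (0.0607 and 0.0577), and GALNT7 also with no intensity trend (0.0509), with the mean of at least 5 FPKM (0.0524) and with both replicate 1 libraries left out (0.0958). With non-target replicates 2 and 3 counted as 1 sample, GALNT7, FUT4 and B4GALNT4 lost it. In the other gene lists, GNE lost the call with no filter, the mean of at least 5 FPKM, and TPM or median-ratio scaling. CMAS lost it with scaling to TPM, and MUC2, HS3ST1 and LGALS1 with no filter. GNE, CMAS, SLC35A3, HS3ST1 and MUC2 lost it with non-target replicates 2 and 3 counted as 1 sample. In fits with 2 libraries in a group the spread rests on fewer samples, and members near 1 FPKM are limited by depth.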
